A study of Mus musculus with 15 samples.

Results

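Mesothelin (Msln) and 8 other genes for proteins of the epithelial cell surface were followed in mouse biliary epithelial cells after the induced loss of the transcription factor Klf5. The 9 genes are Msln, Tspan8, Ly6c1, Ly6a, Ly6e, Smpdl3b, Epcam, Cd24a and Muc1. They were chosen by symbol, as surface markers of progenitor-like and biliary epithelium, out of 24421 gene symbols in the authors' deposited tables. All 9 were found and all 9 had an adjusted p at both times. The choice was made with the folds of these genes at 24 h and 12 h already known. Their folds and calls are therefore given as a description and support nothing beyond themselves.

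All libraries came from 1 established biliary duct line of the adult C57BL/6 strain with the genotype ITR-CreERT2;Klf5flox/flox. The labels do not say more of what drives the Cre. CreERT2 is a Cre recombinase that enters the nucleus when it binds 4-OH tamoxifen and there removes the floxed part of Klf5. There were 4 tamoxifen and 4 ethanol libraries at 24 h, and 4 tamoxifen and 3 ethanol libraries at 12 h, 15 in all. Ethanol (EtOH) is the solvent control and its cells carry the same alleles, so effects of tamoxifen, of Cre and of Klf5 loss lie in 1 contrast. The series text speaks of 3D structures in vitro in 1 place and of structures in vivo in another, which was not settled here. The labels do not state whether replicates were grown apart, so the errors cover the spread between libraries, which may be technical.

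These proteins sit on the outer face of the plasma membrane. Msln, the Ly6 proteins, Cd24a and Smpdl3b are held there by a glycosylphosphatidylinositol (GPI) anchor, a lipid attached in the endoplasmic reticulum in exchange for the tail of the protein. Tspan8, Epcam and Muc1 cross the membrane with their own chain. Epcam and Cd24a are used to sort bile duct and progenitor-like cells from liver, and Ly6a, also called Sca-1, marks progenitor populations in several mouse tissues. Klf5 belongs to the Krüppel-like zinc finger factors, which bind GC-rich boxes and CACCC boxes in DNA.

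The authors' deposited tables give for each gene a mean normalised read count over the libraries of a time, a log2 fold with its standard error (SE) and an adjusted p-value. They hold no value per library. The level of each group was computed from the mean, the fold and the group sizes, and it carries no SD of its own. The means sum to 11.8 M per library at 24 h and 13.9 M at 12 h. For genes averaging 50 or more normalised counts the SE had a median of 0.0783 at 24 h and 0.161 at 12 h, so the 24 h folds are the more precise. The targeted gene, Klf5, had a level of 285 normalised counts in tamoxifen and 938 in ethanol libraries at 24 h, computed from the authors' deposited table. In the 12 h libraries there were 266 in tamoxifen and 652 in ethanol libraries from the same source. Klf5 RNA in tamoxifen libraries was thus 30.4% of ethanol at 24 h and 40.9% at 12 h. Removal of the floxed part and Klf5 protein were not measured in the data used here. RNA was taken in bulk, where fewer cells of a type and less RNA per cell cannot be told apart.

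The cell type was checked on its markers. The biliary genes Krt19, a keratin, and Spp1, osteopontin, had means of 6700 and 14407 normalised counts at 24 h in the authors' deposited table. Sox9, a transcription factor of the biliary lineage, had 767 there. Other biliary genes were low in the authors' deposited table at 24 h, with means of 3.22 for the transcription factor Onecut1, 12.7 for the chloride channel Cftr and 0.357 for the water channel Aqp1. Some hepatocyte genes were expressed as well, with means of 27450 for the apolipoprotein Apob and 4146 for the transcription factor Hnf4a, while albumin (Alb) had 1.48 in the authors' deposited table. The markers thus did not all go with the biliary label. Epcam itself went against its use as a marker here. Its mean was 9.56 at 24 h and 15.7 at 12 h in the authors' deposited tables. Per kb of exon it stood at the 28.6th percentile at 24 h, counted over all genes with any read and an exon length. Prom1, another progenitor surface marker, had a mean of 0.50 at 24 h and 1.69 at 12 h in the authors' deposited tables.

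Of the 9 surface genes, 4 rose and 2 fell at 24 h in the authors' deposited table with the threshold at an adjusted p of 0.05. Of all 11648 genes tested there 12.4% were called, 5.90% as higher and 6.52% as lower. At 12 h, 1 rose and 1 fell, beside calls for 0.943% of 13044 genes, 0.215% as higher and 0.728% as lower. Msln and Tspan8 fell at 24 h, while the Ly6 genes Ly6c1, Ly6a and Ly6e and the sialoglycoprotein gene Cd24a rose. Smpdl3b was the rise at 12 h and Msln the fall. Epcam and Muc1 passed the threshold at neither time.

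**Figure D1:**
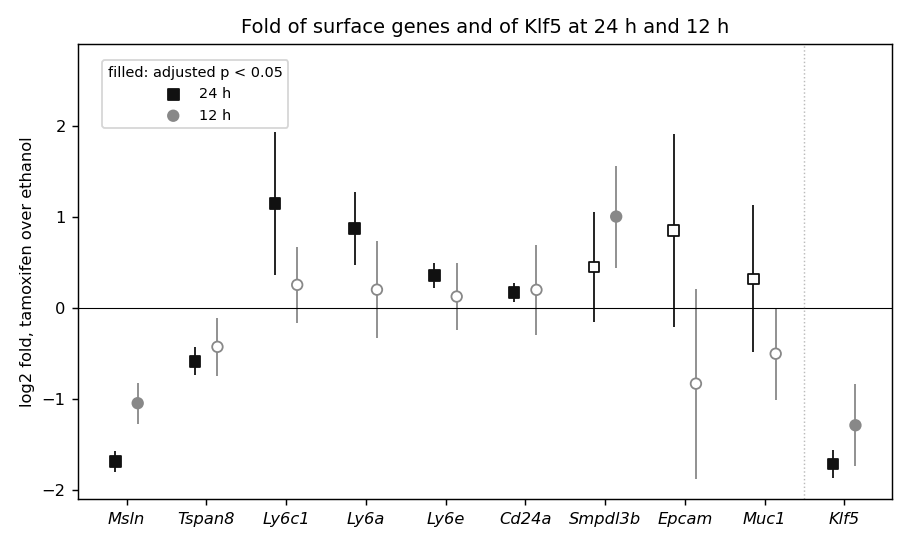
Log2 fold of tamoxifen over ethanol for the 9 surface genes and for Klf5 (right of the dotted line), at 24 h (black squares) and 12 h (grey circles). Bars are 95% intervals, and filled symbols mark calls by the authors (adjusted p below 0.05); Msln lies at -1.69 and -1.05 and the 3 Ly6 genes lie above 0 at both times.

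Msln encodes a precursor that is cut into a secreted part and the GPI-anchored mesothelin, which binds the mucin Muc16. The gene lies at chr17:25748613-25754378 on the reverse strand of GRCm38. At 24 h its level was 2207 normalised counts in tamoxifen and 7117 in ethanol libraries, computed from the authors' deposited table. Levels at 12 h were 7291 in tamoxifen and 15074 in ethanol libraries from the same source. The tamoxifen level was thus under the ethanol level at both times.

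The log2 fold of Msln was -1.69 (SE 0.06) at 24 h in the authors' deposited table, which leaves 31.0% of the ethanol level with a 95% interval of 28.6% to 33.6%. Its fold at 12 h was -1.05 (SE 0.11) in the authors' deposited table, or 48.4% of ethanol with an interval of 41.4% to 56.5%. The adjusted p was 2.41e-179 at 24 h and 3.89e-16 at 12 h in the authors' Wald test. Its p ranked 1 of 11648 genes at 24 h, ahead of Klf5, and 2 of 13044 at 12 h. By the fold alone Msln ranked 14 from the lowest at 24 h and 240 at 12 h.

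Msln was the one surface gene to pass the test of a difference between the times. It was chosen with both folds known, so its p is a description only. The fold at 24 h minus that at 12 h was -0.64 (SE 0.13), with an adjusted p of 0.00485 in a Wald test of the difference over 14981 genes. Only 2 genes, 0.0134%, passed that test. The other was Serpine2, a serine protease inhibitor named after its value was seen, at -0.87. The differences of the other 8 surface genes had adjusted p of 0.9999 each, which does not show that their folds were alike. Of these, Ly6c1 at 0.89 (SE 0.45), Ly6a at 0.67 (SE 0.34) and Epcam at 1.68 (SE 0.76) had unadjusted p of 0.0491, 0.0482 and 0.0269 in the same Wald test.

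Over 9859 genes averaging 50 or more at both times, the pair of folds nearest to that of Msln belonged to Ms4a4b, at a Euclidean distance of 0.15 in log2 units. Its folds were -1.63 (SE 0.20) at 24 h and -0.91 (SE 0.24) at 12 h in the authors' deposited tables. Itgb6, an integrin chain, followed at a distance of 0.21 and Klf5 itself at 0.24. Rdh10, which oxidises retinol, and Vnn1, a GPI-anchored pantetheinase, stood at 0.28 and 0.29. Likeness here rests on 2 folds per gene.

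**Figure D2:**
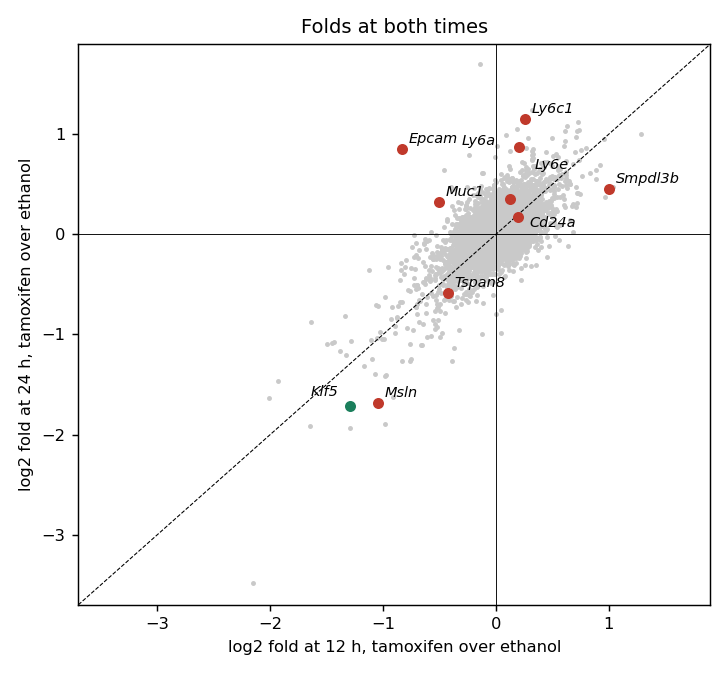
Log2 fold at 24 h (vertical) against that at 12 h (horizontal), tamoxifen over ethanol. Grey points are genes averaging 50 or more normalised counts at both times, red points the 9 surface genes, the green point Klf5 and the dashed line equal folds; Msln lies beside Klf5 and below the line, and Epcam and Muc1 lie on opposite sides of 0 at the times.

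Tspan8 encodes a tetraspanin, a protein with 4 passes through the membrane that gathers integrins and other partners into membrane domains. The gene lies at chr10:115816832-115849893 on the forward strand of GRCm38. Its level at 24 h was 3497 normalised counts in tamoxifen and 5256 in ethanol libraries, computed from the authors' deposited table. The 12 h values were 8430 in tamoxifen and 11345 in ethanol libraries from the same source. Tamoxifen was the lower group at both times, by less than for Msln.

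The fold of Tspan8 at 24 h was -0.59 (SE 0.08) in the authors' deposited table, 66.5% of ethanol with an interval of 59.9% to 74.0% and an adjusted p of 5.49e-12. The 12 h fold was -0.43 (SE 0.16) in the authors' deposited table, with p values of 0.38 adjusted and 0.00887 unadjusted. The difference between the times was -0.16 with a 95% interval of -0.51 to 0.20.

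Tspan8 was set beside its family of 31 listed tetraspanins. Of the 20 others with an adjusted p at 24 h, 4 rose, 2 fell and 14 did not pass, and their median log2 fold was 0.072 beside -0.0004 for all genes. Among all genes tested at 24 h, 5.90% were called higher and 6.52% lower. Cd81, a coreceptor on many cells, stood 0.23 (SE 0.04) higher in the authors' deposited table and Tspan2, Tspan9 and Tspan14, named after their values were seen, rose by 0.81, 0.21 and 0.20. Cd63 of lysosomes and exosomes fell by 0.22 and Tspan15, a partner of the protease Adam10, fell by 0.40 in the authors' deposited table. At 12 h Tspan15 at -0.82 (SE 0.16) was the 1 call among 22 others in the authors' deposited table, where 0.943% of all genes tested were called.

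The Ly6 genes rose at 24 h. They belong to the Ly6/uPAR family of small disulphide-rich domains and lie together on chromosome 15. Ly6a is at chr15:74994877-74998031 and Ly6c1 at chr15:75044018-75048830 on the reverse strand of GRCm38, and Ly6e is at chr15:74955051-74959905 on the forward strand. Ly6c1 is known on lymphocytes and endothelium, and Ly6e on many cell types. All 3 are known to be inducible by interferon.

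Ly6c1 had 138 normalised counts in tamoxifen and 62.3 in ethanol libraries at 24 h, computed from the authors' deposited table. In the 12 h libraries there were 421 in tamoxifen and 353 in ethanol libraries from the same source. The rise at 24 h thus lay on a low ethanol level, and both groups at 24 h were under both groups at 12 h. Its fold at 24 h was 1.15 (SE 0.40) in the authors' deposited table, 2.21 times ethanol with an interval of 128.5% to 381% of ethanol and an adjusted p of 0.0371. Its fold at 12 h was 0.25 (SE 0.21) in the authors' deposited table, with an adjusted p of 0.9994. Adjusted over every gene with a p, the 24 h value was 0.0503, which ends the call.

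Ly6a had 836 normalised counts in tamoxifen and 457 in ethanol libraries at 24 h, computed from the authors' deposited table. Levels at 12 h were 2655 in tamoxifen and 2312 in ethanol libraries from the same source. The order of the 4 groups was the same as for Ly6c1. The fold was 0.87 (SE 0.20) at 24 h in the authors' deposited table, 1.83 times ethanol with an adjusted p of 0.00043. The 12 h fold was 0.20 (SE 0.27) in the authors' deposited table (adjusted p 0.9994).

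Ly6e had the highest mean per kb of exon of the 9 surface genes. It had 16144 normalised counts in tamoxifen and 12625 in ethanol libraries at 24 h, computed from the authors' deposited table. The 12 h values were 34187 in tamoxifen and 31369 in ethanol libraries from the same source. The fold was 0.35 (SE 0.07) at 24 h in the authors' deposited table, 1.28 times ethanol with an adjusted p of 1.05e-05. Its fold at 12 h was 0.12 (SE 0.19) in the authors' deposited table (adjusted p 0.9994). From the highest fold at 24 h down, the order was Ly6c1, Ly6a and Ly6e, the reverse of their levels per kb.

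The spread of Ly6c1 and Ly6a between libraries was large at 24 h. Their SEs were 2.58 and 2.89 times the running median of genes of similar mean, a ratio over 2.5 that 106 of 9983 genes (1.06%) with a mean of at least 50 had. That of Ly6e was 1.41 times. At 12 h the ratios of Ly6c1, Ly6a and Ly6e were 1.34, 2.03 and 1.43. With the SE of genes of similar mean in place of their own, the differences between the times of Ly6a and Ly6c1 passed (adjusted p = 0.0111 and 0.048). That swap sets aside the larger spread measured for these genes, so passing it does not show a difference. With their own SEs the adjusted p of the Wald test was 0.9999 for each. Which libraries carry this spread cannot be seen in tables of means and folds.

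**Figure D3:**
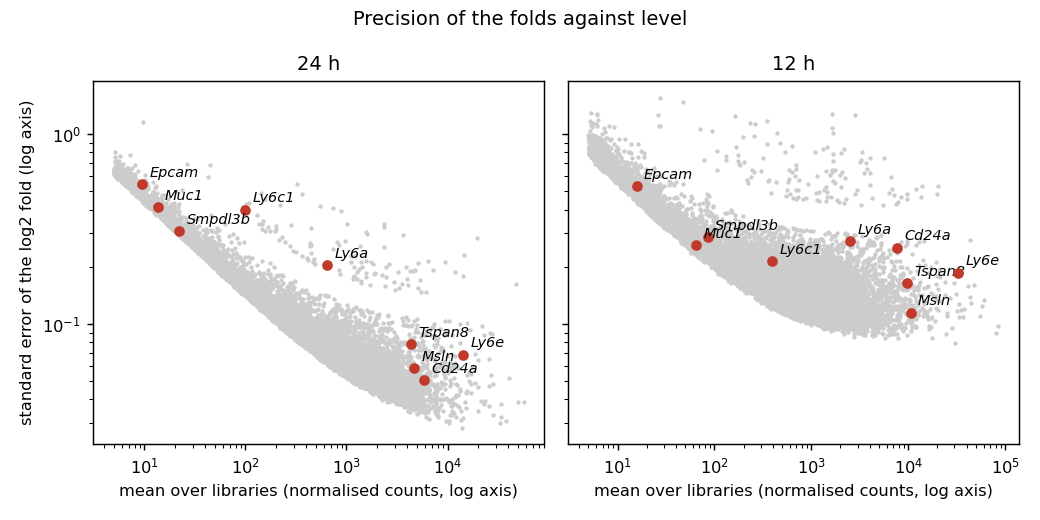
Standard error of the log2 fold against the mean normalised count over the libraries of a time, at 24 h (left) and 12 h (right), both axes logarithmic. Grey points are genes with a mean of at least 5 and red points the 9 surface genes; at 24 h Ly6c1 and Ly6a lie above the band of genes of similar mean, at SEs of 0.40 and 0.20.

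Close copies of Ly6c1 could share its reads. The first 90 coding bases of Ly6c1 and of its neighbour Ly6c2 are shown because the copies differ most there, with 6 of their 9 coding differences in this stretch. They come from GENCODE M21 transcripts on chromosome 15 of GRCm38, both genes read 5′ to 3′ along the transcript, and capitals mark the bases that differ.
Ly6c1: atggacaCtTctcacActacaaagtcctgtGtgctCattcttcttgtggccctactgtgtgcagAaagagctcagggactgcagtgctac
Ly6c2: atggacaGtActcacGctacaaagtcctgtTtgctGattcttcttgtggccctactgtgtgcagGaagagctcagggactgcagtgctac
Over 396 coding bases the copies are 97.7% identical, with a longest identical run of 188 bases. Ly6a and Ly6c1 are 82.0% identical and Ly6c1 and Ly6e 49.9%.

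Of the 50-base windows in annotated transcripts, 32.8% of those of Ly6c1 and 19.0% of those of Ly6a also occur in another gene, against 0 for Ly6e. The deposited mean of Ly6c2 was 0.125 at 24 h and 0.147 at 12 h in the authors' deposited tables, a value that a single read in 1 library gives. Ly6i, another close copy, had 2.24 at 24 h and 1.003 at 12 h in the authors' deposited tables. How reads that match several copies were counted is not given in the sources used here, so the values of Ly6c1 and Ly6a are uncertain. Msln and Cd24a shared 2.88% and 2.75% of their windows, and the other members 0.

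In the Ly6/uPAR family, 36 of 39 listed genes were in the tables and 7 had an adjusted p at 24 h. The 4 besides Ly6c1, Ly6a and Ly6e held 0 rises, 1 fall and 3 that did not pass in the authors' Wald test, with 1 higher and 1 lower at an unadjusted p under 0.05. Calls at 24 h made up 12.4% of all genes tested. The fall was Plaur, the urokinase receptor, at -1.24 (SE 0.08) at 24 h and -1.10 (SE 0.24) at 12 h in the authors' deposited tables. Plaur was thus opposite in sign to the 3 rises of its family.

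Genes induced by interferon were listed because of the Ly6 genes. At 24 h 2 of 13 with an adjusted p rose and 0 fell in the authors' Wald test, with 4 higher and 0 lower before adjustment (p under 0.05). Among all genes tested then, 5.90% were called higher and 6.52% lower. The median log2 fold of the list was 0.23 beside -0.0004 for all genes tested. Irf1, a transcription factor of the interferon response, was higher by 0.45 (SE 0.07) and the RNA sensor Ifih1 by 0.49 (SE 0.16) in the authors' deposited table. At 12 h 2 of 22 rose and 0 fell, Irf1 and Cxcl10, with a median of 0.35 beside -0.0062 for all genes. Calls over all genes at 12 h were 0.215% higher and 0.728% lower. The part of interferon signalling in the Ly6 values was not tested.

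Other cell types were checked on their defining markers at 24 h. The 4 endothelial markers summed to 0.987 normalised counts in tamoxifen and 1.71 in ethanol libraries, with Cdh5 and Tie1 listed at 0. The 4 haematopoietic markers summed to 1.67 in tamoxifen and 0.818 in ethanol libraries, with Cd3e at 0 and Ptprc at a mean of 0.613. The 4 mesothelial markers, named because Msln is typical of mesothelium, summed to 0.825 in tamoxifen and 1.16 in ethanol libraries, with Upk1b at 0. Of the fibroblast markers Pdgfra, Dcn and Lrat were at 0 and Col1a1 had a mean of 10.8. A total of 3 reads in 1 library gives a mean of 0.352 to 0.401 at 24 h, so the endothelial, haematopoietic and mesothelial sums are of a few reads. The 4 hepatocyte markers, 3 of them well above 0, summed to 5072 normalised counts in tamoxifen and 4652 in ethanol libraries at 24 h. Of these, Hnf4a had a mean of 4146, Apoa1 448, Ttr 267 and Alb 1.48 in the authors' deposited table.

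The wider endothelial, haematopoietic, mesothelial and fibroblast lists held 0 calls in the authors' Wald test at either time. At an unadjusted p under 0.05 the endothelial, haematopoietic and fibroblast lists held 0 genes at both times, and the mesothelial list 1 higher and 1 lower at 24 h and 1 lower at 12 h. The lower gene was Bnc1 at both times, at -1.19 (SE 0.50) at 24 h and -1.52 (SE 0.74) at 12 h in the authors' deposited tables. Its means were 9.03 and 6.72 normalised counts in that order, with adjusted p of 0.103 and 0.795 in the authors' Wald test. The higher gene at 24 h was Alcam at 0.17 (SE 0.08). Over the whole lists, endothelial genes summed to 413 in tamoxifen and 397 in ethanol libraries at 24 h, most of it Flt1. Haematopoietic genes summed to 75.4 in tamoxifen and 83.3 in ethanol libraries, most of it Cd68. Mesothelial genes summed to 3059 in tamoxifen and 2728 in ethanol libraries, most of it Alcam, an adhesion molecule of many cell types, and fibroblast genes to 13.9 and 11.1 in that order. The wider hepatocyte list summed to 35530 in tamoxifen and 29108 in ethanol libraries at 24 h, most of it Apob, the main protein of very low density lipoprotein. Of its 4 genes with an adjusted p at 24 h, Apob rose, with a fold of 0.32 and a mean of 27450 per the authors' deposited table. The part of other cell types in the results was not tested beyond these levels. Few genes of the other lists had an adjusted p at 24 h, 3 endothelial, 1 haematopoietic, 2 mesothelial and 1 fibroblast gene.

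Cd24a encodes a short, heavily glycosylated GPI-anchored protein that binds selectins and Siglec receptors. It lies at chr10:43578284-43584265 on the forward strand of GRCm38. At 24 h it had 6163 normalised counts in tamoxifen and 5483 in ethanol libraries, computed from the authors' deposited table. In the 12 h libraries there were 8109 in tamoxifen and 7070 in ethanol libraries from the same source. The groups were close at both times, and the call at 24 h rests on a small SE.

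The fold of Cd24a was 0.17 (SE 0.05) at 24 h in the authors' deposited table, 112.4% of ethanol with an interval of 104.9% to 120.4% and an adjusted p of 0.0113. The 12 h fold was 0.20 (SE 0.25) in the authors' deposited table, with an adjusted p of 0.9994. The point values were alike and the SE at 12 h was 1.92 times that of genes of similar mean. The difference between the times was -0.03 with a 95% interval of -0.53 to 0.48.

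Smpdl3b encodes a GPI-anchored phosphodiesterase of the acid sphingomyelinase family that alters membrane lipids and limits Toll-like receptor signalling in macrophages. It lies at chr4:132732966-132757252 on the reverse strand of GRCm38. At 24 h it had 25.6 normalised counts in tamoxifen and 18.7 in ethanol libraries, computed from the authors' deposited table. Levels at 12 h were 109 in tamoxifen and 54.5 in ethanol libraries from the same source. Tamoxifen was the higher group at both times, at a level that was lower at 24 h.

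The fold of Smpdl3b at 24 h was 0.45 (SE 0.31) in the authors' deposited table, with an adjusted p of 0.398. The 12 h fold was 1.003 (SE 0.29) in the authors' deposited table, with an adjusted p of 0.0487. Adjusted over every gene with a p, the 12 h value was 0.0586 and no longer passed. The fold at 24 h minus that at 12 h was -0.55 with a 95% interval of -1.38 to 0.27, so a lost rise at 24 h is not shown.

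Of the 8 other sphingomyelin and ceramide enzymes with an adjusted p at 24 h, 0 rose and 1 fell in the authors' Wald test, with 1 higher and 2 lower at an unadjusted p under 0.05. The share called among all genes tested at 24 h was 12.4%. The fall was acid ceramidase (Asah1) at -0.34 (SE 0.05) in the authors' deposited table. At 12 h 0 of 9 others were called, with 0 at an unadjusted p under 0.05. The paralog Smpdl3a had a mean of 4.56 at 24 h and 3.23 at 12 h in the authors' deposited tables.

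Epcam encodes an adhesion protein of simple epithelia and lies at chr17:87635979-87651129 on the forward strand of GRCm38. At 24 h it had 12.3 normalised counts in tamoxifen and 6.82 in ethanol libraries, computed from the authors' deposited table. The 12 h values were 11.8 in tamoxifen and 21.01 in ethanol libraries from the same source. The direction differed between the times at a level of few reads. Its folds were 0.85 (SE 0.54) at 24 h and -0.83 (SE 0.53) at 12 h in the authors' deposited tables, with adjusted p of 0.35 and 0.9994.

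Partners and proteases of Epcam were expressed in part. Of 14 with an adjusted p at 24 h besides Epcam, 0 rose and 1 fell in the authors' Wald test, with 0 higher and 2 lower at an unadjusted p under 0.05. Over all genes tested at 24 h the share called was 12.4%. The fall was Fhl2, a LIM protein that carries the cut Epcam tail to the nucleus, at -0.34 (SE 0.10) in the authors' deposited table. Cd44, a hyaluronan receptor, had a mean of 4103 at 24 h and a fold of 0.12 (SE 0.16) in the authors' deposited table. Cldn7, the claudin that binds Epcam, had a mean of 0.245 at 24 h and 1.12 at 12 h in the authors' deposited tables.

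Muc1 encodes a transmembrane mucin of the apical surface and lies at chr3:89229057-89233381 on the forward strand of GRCm38. At 24 h it had 15.05 normalised counts in tamoxifen and 12.1 in ethanol libraries, computed from the authors' deposited table. In the 12 h libraries there were 55.3 in tamoxifen and 78.4 in ethanol libraries from the same source. As for Epcam, the sign of the fold differed between the times, at 0.32 (SE 0.41) at 24 h and -0.50 (SE 0.26) at 12 h in the authors' deposited tables. The adjusted p was 0.712 at 24 h and 0.858 at 12 h.

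Most other mucins and sialomucins were rare. Of 20 listed, 15 were in the tables and 9 had any read at 24 h, and 4 besides Muc1 had an adjusted p. Of these 4, 0 were called at 24 h in the authors' Wald test and 0 had an unadjusted p under 0.05, as held for the 5 at 12 h. Muc13, an epithelial transmembrane mucin, had a mean of 17.4 at 24 h and 34.9 at 12 h in the authors' deposited tables. Cd164, a sialomucin of endosomes and the cell surface, had 4123 at 24 h in the authors' deposited table.

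**Figure D4:**
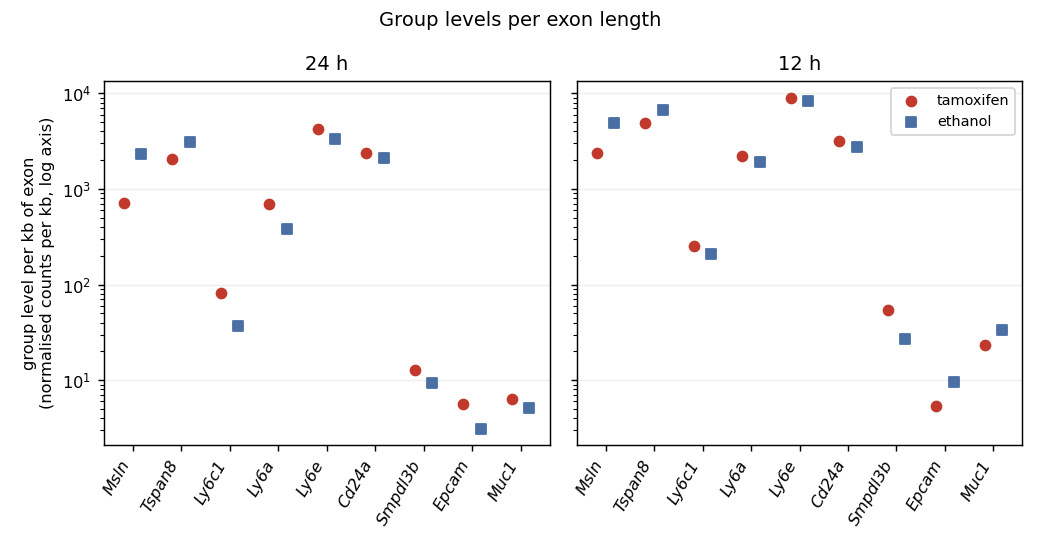
Level of each surface gene in tamoxifen (red circles) and ethanol (blue squares) libraries, in normalised counts per kb of merged exon on a logarithmic axis, at 24 h (left) and 12 h (right). Points are group levels computed from the mean and fold, with no error of their own; Ly6e is highest and Epcam, Muc1 and Smpdl3b are the 3 lowest at both times.

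Levels were compared between genes per kb of merged exon. At 24 h the order of the means was Ly6e at 3801 normalised counts per kb, Tspan8 at 2572, Cd24a at 2257, Msln at 1522, Ly6a at 537, Ly6c1 at 59.7, Smpdl3b at 11.0, Muc1 at 5.78 and Epcam at 4.36. At 12 h it was Ly6e at 8715, Tspan8 at 5687, Msln at 3468, Cd24a at 2971, Ly6a at 2082, Ly6c1 at 234, Smpdl3b at 42.7, Muc1 at 27.8 and Epcam at 7.17. Msln and Cd24a changed places, and the other 7 kept theirs. Ly6e ranked 63 and Tspan8 125 of 15217 genes with a mean and an exon length at 24 h. Neighbours in these orders cannot be tested without values per library.

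All 9 surface genes had lower means at 24 h than at 12 h. Each time has its own table, taken here as normalised apart, so means were scaled to a sum of 1 M normalised counts per table, and no test was made. The log2 ratio of 24 h over 12 h was -2.03 for Muc1, -1.74 for Ly6c1, -1.73 for Ly6a, -1.72 for Smpdl3b, -0.97 for Ly6e, -0.96 for Msln, -0.91 for Tspan8, -0.49 for Epcam and -0.17 for Cd24a. The median over 11624 genes with an adjusted p at both times was -0.068. Muc1, Ly6c1, Ly6a and Smpdl3b thus lay among the lowest ratios, with 1.09%, 2.19%, 2.28% and 2.30% of those genes below them.

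The lower levels at 24 h were also present in ethanol. Ly6a in ethanol libraries was at 38.6 per M at 24 h and 166 per M at 12 h, and Ly6c1 at 5.26 and 25.4 in that order. In tamoxifen libraries Ly6a was at 70.6 per M at 24 h and 191 at 12 h. Epcam, at few reads, was instead higher at 24 h in tamoxifen libraries, with 1.04 per M beside 0.849 at 12 h. Klf5 went the other way in ethanol, with 79.2 per M at 24 h and 46.9 at 12 h. Time after treatment and separate processing of the times cannot be told apart here.

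Other GPI-anchored proteins and the enzymes that make the anchor were then examined. Besides Msln, Cd24a and Smpdl3b, 23 GPI-anchored proteins outside the Ly6 family had an adjusted p at 24 h, of which 1 rose, 4 fell and 18 did not pass, with a median log2 fold of 0.066. Among all genes tested at 24 h, 5.90% were called higher and 6.52% lower. Vnn1 fell by 1.41 (SE 0.09) and Cd14, the lipopolysaccharide coreceptor, by 0.66 (SE 0.08) in the authors' deposited table. Vnn3 at -0.65, the cadherin Cdh13 at -0.77 and the rise, the neurturin receptor gene Gfra2 at 1.25 from a mean of 11.2, were named after their values in the authors' deposited table were seen. At 12 h Vnn1 at -0.98 (SE 0.16) was the 1 call among 29 in the authors' deposited table, beside calls for 0.943% of all genes.

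The enzymes that build, attach and remodel the anchor held no call. Of 30 listed, 28 had an adjusted p at 24 h, of which 0 rose and 0 fell in the authors' Wald test, with 3 higher and 0 lower at an unadjusted p under 0.05. Calls among all genes tested at 24 h were 12.4%. At 12 h 0 of 29 were called and 0 had an unadjusted p under 0.05. Their median log2 fold was 0.023 at 24 h and 0.013 at 12 h. Msln and the Ly6 genes, which share this anchor, stood on opposite sides of 0.

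Other markers of progenitor-like and biliary epithelium were split at 24 h. Of 18 with an adjusted p, 3 rose, 2 fell and 13 did not pass, with a median log2 fold of 0.058. Over all genes tested at 24 h, 5.90% were called higher and 6.52% lower. Onecut2, a transcription factor, rose by 0.29 in the authors' deposited table, and Cldn4, named after its value was seen, rose by 1.24 (SE 0.44) from a mean of 11.6. The neural adhesion molecule Ncam1, a marker of reactive bile ductules, fell by 0.40 (SE 0.06) and Krt19 by 0.46 (SE 0.09) in the authors' deposited table. At 12 h the 1 call among 20 was Krt7, a keratin named after its value was seen, at -0.80 (SE 0.17) in the authors' deposited table.

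**Figure D5:**
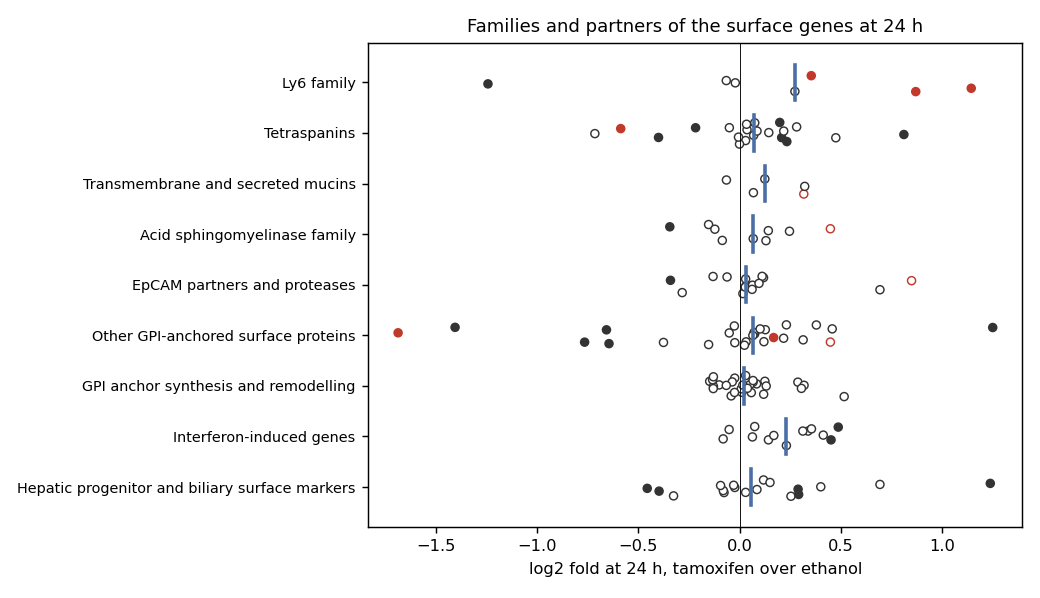
Log2 fold of tamoxifen over ethanol at 24 h for genes with an adjusted p in each of 9 lists (rows), with the surface genes in red and other genes in black. Filled points have an adjusted p under 0.05, blue bars are list medians and the vertical scatter within a row has no meaning; the 3 red points of the Ly6 row lie right of 0 and Msln lies at -1.69 in the row of other GPI-anchored proteins.

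Promoters in RefSeq for GRCm38.p6 were available for Tspan8, Ly6c1, Smpdl3b, Epcam and Muc1, each with 250 bases before and 50 after the annotated start. They were searched on both strands for CACCC and for GGGCGG, letters of the boxes that Krüppel-like factors bind, which 57.5% and 35.7% of 32851 promoters of the same length hold. Tspan8, which fell, Ly6c1, which rose, and Epcam, which did not pass, are shown 5′ to 3′ on the strand of the gene, with matches in capitals. They lie at chr10:115817034-115817333 (forward), chr15:75048788-75049087 (reverse) and chr17:87635729-87636028 (forward).
Tspan8: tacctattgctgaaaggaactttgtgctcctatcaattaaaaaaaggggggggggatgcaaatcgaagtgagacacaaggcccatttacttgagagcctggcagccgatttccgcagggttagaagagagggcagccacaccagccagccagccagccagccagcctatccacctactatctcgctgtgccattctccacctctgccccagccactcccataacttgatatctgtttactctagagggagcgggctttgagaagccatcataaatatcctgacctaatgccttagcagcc
Ly6c1: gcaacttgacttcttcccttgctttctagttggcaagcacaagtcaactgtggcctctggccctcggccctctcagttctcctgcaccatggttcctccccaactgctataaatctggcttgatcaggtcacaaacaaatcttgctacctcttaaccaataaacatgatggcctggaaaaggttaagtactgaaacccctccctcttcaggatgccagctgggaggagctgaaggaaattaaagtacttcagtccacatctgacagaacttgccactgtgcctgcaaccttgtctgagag
Epcam: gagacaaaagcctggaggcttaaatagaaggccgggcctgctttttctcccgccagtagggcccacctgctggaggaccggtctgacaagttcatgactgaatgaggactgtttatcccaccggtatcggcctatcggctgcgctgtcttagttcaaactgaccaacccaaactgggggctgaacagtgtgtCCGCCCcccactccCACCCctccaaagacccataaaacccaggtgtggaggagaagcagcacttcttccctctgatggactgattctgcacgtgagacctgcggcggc

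Neither motif is in the windows of Tspan8, of Smpdl3b or of this start of Ly6c1. Epcam has 1 match of each, Muc1 has 2 of GGGCGG, and another start of Ly6c1, whose window overlaps this one, has 3 of CACCC. Ly6c1 was the only Ly6 gene with a promoter here. Its windows were searched too for letters of interferon elements, TTCNNNGAA and the ISRE-like motif, which 8.3% and 3.44% of the promoters hold. Neither was found in them. Motif matches are letters in a window, and no binding was measured.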

How the data were processed

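Single-end RNA-seq (per the series' design text) was made, per the labels' protocols, with the TruSeq v2 RNA kit, where strand is not kept. HISAT2, DESeq2 and mm10 are named in the submitters' processing notes. No source used here gives the counting tool, the annotation or the model. Per the file headers, the authors' tables hold mean normalised counts (a signal averaged over libraries), log2 folds, their standard errors and Wald scores, p-values and adjusted p-values. Each time has its own table, taken here as normalised apart. The direction was read at 12 h from the 7 lowest distinct means (1 read in 1 library). Of these, 3 have negative and 4 positive folds, matching the number of ethanol (3) and tamoxifen (4) libraries. Groups of 4 and 4 cannot show it at 24 h, where Klf5 is again lower and the direction was taken to be the same.

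Group levels solve the mean and fold for the group sizes. An adjusted p under 0.05 was a call. Folds at 24 h and 12 h were compared by a Wald test (their difference over its SE, from both squared SEs), with Benjamini-Hochberg adjustment over all genes. The code was run on simulated folds with noise drawn from the same SEs. That run checks the code and cannot show whether the SEs are right. Intervals are 95% from the SE. Depth per library is not in the tables; the summed means are 11.8 M at 24 h and 13.9 M at 12 h. Ethanol replicate 2 at 12 h was not analysed here. Exon lengths and positions come from GENCODE M21, and list members with older symbols were matched through RefSeq. Python 3.11.15, numpy 2.4.6, pandas 2.3.3, scipy 1.17.1, Biopython 1.88 and matplotlib 3.10.9 were used. Members and lists were chosen with earlier results of these data known. Named genes are the members, Klf5, up to 4 called genes of each list by smallest adjusted p with its most abundant gene, and the 5 genes nearest to Msln. Serpine2, Muc13, Smpdl3a, Cldn7, Prom1, Cftr, Aqp1, Bnc1, Ly6c2 and Ly6i lie outside it and were named after their values were seen. The same holds for Tspan2, Tspan9, Tspan14, Vnn3, Cdh13, Gfra2, Cldn4 and Krt7. Some genes of the lists are counted but not reported here by name.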

Additional observations from a re-analysis of the deposited data

Results flagged for a closer look

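The fold of Msln passed a test of the difference between the times, made on folds already known when Msln was chosen. Its log2 fold at 24 h minus that at 12 h was -0.64 (SE 0.13, 95% interval -0.89 to -0.39), from -1.69 at 24 h and -1.05 at 12 h in the authors' deposited tables. The adjusted p of the Wald test was 0.00485, and it ranged from 0.00364 to 0.00663 over the alternatives. The alternatives reuse the same deposited folds, which were known when Msln was chosen, so they add no independent support.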

How the results depend on the processing

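Alternatives changed the genes over which p was adjusted, the minimum mean, the threshold, the centre of the folds (by -0.0044 at 24 h and -0.0047 at 12 h) and the SE. Of the counts recomputed, 15 stayed within 1.5 times and 4 moved, and no fold changed sign. Surface genes called at 12 h numbered 1, Msln, in place of 2 when p was adjusted over every gene with a p, with the threshold at 0.01, and with recentred folds, which were also adjusted over every gene. The genes called at 24 h numbered 4 to 6. With the SE of genes of similar mean, 3 genes passed the test between the times in place of 1, Msln with Ly6a and Ly6c1. For Ly6a and Ly6c1 that SE is smaller than their own and leaves out spread that was measured, so no difference is shown by it. Among single genes, 157 values kept their side of the threshold, 6 lost a call and 2 gained one. No paired analysis was possible because the deposited columns carry no values per library. For the same reason leaving out single replicates and refitting with another count model were not run. The folds of Epcam, Muc1 and Smpdl3b are limited by their low counts.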
